A study of Rattus norvegicus with 12 samples.

Results

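The motile cilia axoneme genes described here are Foxj1 and the numbered Cfap, Dnah, Dnai, Rsph, Tekt and Drc genes, in male rat hippocampus. A gene was taken when its symbol matched this pattern and its estimated read counts summed to at least 60 over 6 RNA libraries. Of the 26949 genes in the RNA table, 64 symbols matched and 58 reached that sum. The rule used the symbol and the summed depth and no contrast between groups. The rats of the CIH group were exposed to chronic intermittent hypoxia, which lowers oxygen in repeated short spells as sleep apnoea does, for 4 weeks. The control rats were kept in normoxia for 4 weeks. Each group has 3 RNA libraries and 3 small RNA libraries of hippocampus, named CIH 1 to CIH 3 and control 1 to control 3. The labels give neither strain nor age, and they do not say whether libraries came from separate animals, so the p-values measure only the spread between libraries.

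Motile cilia beat by means of the axoneme, a cylinder of microtubule doublets around a central pair. Outer and inner dynein arms slide the doublets past each other, while radial spokes, the nexin-dynein regulatory complex and proteins inside the doublets hold and regulate them. In the brain, ependymal cells, which line the ventricles, carry tufts of motile cilia, and the forkhead transcription factor Foxj1 together with Rfx factors switches on their axoneme genes. Neurons and astrocytes carry a primary cilium, which lacks most of this beating machinery.

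Factors of the Rfx family bind a sequence called the X-box, and promoters holding it are shown first because the axoneme genes as a class are known for this site. An X-box was taken as GT, any 2 bases, CC, any 3 bases, G, any 2 bases and AC, and was searched on both strands in RefSeq promoter windows of build GRCr8, from 250 bases before each gene's start to 50 after it. Of the 58 genes, 48 had a promoter entry, and 14 of these 48 (29.2%) held the motif, against 4.91% of 27457 genes with a promoter entry and 5.56% of the 12166 of these that were tested. A gene was counted when any of its windows held the motif, and the 48 genes had 89 windows. By window, 19.1% of the 89 held it, against 4.57% of the 33469 windows of all genes. In the 250 bases before the start alone, the shares were 18.8% of the 48 axoneme genes and 4.02% of all genes. Of these, 5 windows are shown, each with 1 match upstream of the start, in capitals, and 20 flanking bases on either side, read 5′ to 3′ on the gene's strand.
Dnah2: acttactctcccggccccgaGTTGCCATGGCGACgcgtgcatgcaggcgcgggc
Dnah12: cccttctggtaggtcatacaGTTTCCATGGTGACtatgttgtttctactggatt
Tekt1: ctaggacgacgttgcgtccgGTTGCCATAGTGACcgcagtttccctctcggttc
Cfap206: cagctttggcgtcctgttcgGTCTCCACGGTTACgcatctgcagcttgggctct
Cfap300: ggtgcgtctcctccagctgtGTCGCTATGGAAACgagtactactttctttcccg
The Dnah2 window lies at chr10:54766038-54766091 on the minus strand and its match begins 45 bases before the start. The Dnah12 window lies at chr16:1944670-1944723 on the plus strand, with the match 62 bases before the start. The Tekt1 window lies at chr10:57479127-57479180 on the minus strand, with the match 39 bases before the start. The Cfap206 window lies at chr5:54095396-54095449 on the minus strand, with the match 46 bases before the start. The Cfap300 window lies at chr8:13483613-13483666 on the minus strand, and its match, 38 bases before the start, reads as the motif on the opposite strand.

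The other genes with a match were Cfap298, Cfap44, Cfap45, Cfap61, Cfap91, Dnah9, Drc7, Rsph9 and Tekt4. GTTGCC, which can form the left arm of an X-box and so overlaps that motif, was held by 19 of the 48 genes (39.6%), against 13.1% of all genes and 13.6% of those tested. By window the shares were 29.2% and 12.2%. GTAAACA, a forkhead motif, was held by 4 of the 48 (8.33%), against 4.13% of all genes and 2.66% of those tested. Its shares by window were 5.62% and 3.78%. TTGGCGC, an E2F motif, was held by 2 of the 48 (4.17%), against 2.57% of all genes and 4.27% of those tested, so the share was no higher than among tested genes. Such matches describe letters in these windows and say nothing of binding in these rats.

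The axoneme genes stood at low levels in these hippocampi. Their mean TPM, a level per transcript length, ran from 0.233 to 304 with a median of 2.03, and 29 of the 58 averaged under 2 TPM while 11 averaged over 10 TPM. Together they held between 0.0464% of the estimated counts in CIH 1, the lowest share, and 0.0700% in control 3, the highest. Dnah9, a heavy chain of the outer dynein arm, alone supplied 24.8% of the members' counts in CIH 1 and 33.0% to 37.8% in the other 5 libraries.

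RNA libraries held 17170943 to 21941173 estimated counts, with CIH 1 the shallowest, and small RNA libraries held 4681163 to 4914232 counts. Between libraries, levels are given as CPM, counts scaled to library size by TMM factors, a normalization to the bulk of genes. For Cfap299, Cfap65 and Dnah6 the gene length implied by the authors' counts and FPKM varied more than 3-fold between libraries, so their TPM cannot be read across libraries. In CIH 1, 13 of the 58 axoneme genes were under 0.5 of their level in every other library, against 1.78% of the 17935 genes tested. Printed log2 fold changes of members and medians of gene lists carry the value without CIH 1 where it differs by more than 1.5 times. That threshold was chosen after the values were seen.

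No axoneme gene passed the test between CIH and control. edgeR's quasi-likelihood test with Benjamini-Hochberg adjustment over all 17935 genes called 0 of the 58, all of which passed the filter on low counts, and it called 0% of all genes tested. DESeq2 called 0 of the 58 and 10 genes of the whole table (0.0372%). At an unadjusted edgeR p under 0.05 stood 1 member, Drc1, which was lower in CIH, where 0.864% of all genes tested were lower and 0.914% higher at that level. The smallest adjusted p among members was 1.00 by edgeR's quasi-likelihood test. In simulated counts of this design, 25.5% of genes changed by 1 on the log2 scale were called, and 72% of those changed by 2. These genes were drawn at random from all genes tested, and the shares were not computed for members alone. Of the unchanged genes, 6 were called.

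Point estimates leaned to lower values in CIH. The log2 fold change, CIH over control, was below 0 in 48 of the 58 genes (82.8%), where 49.4% of all genes tested were below 0, and its median was -0.29 over the members and 0.00 over all genes. Without CIH 1 it was below 0 in 40 of the 58 and the median was -0.11. The median was -0.13 without control 3 and -0.63 without CIH 2, so 3 libraries moved it by more than 1.5 times. Members were also more scattered between libraries than genes at large. Their median range over the 6 libraries was 1.33 on the log2 CPM scale, against 0.62 for all genes tested, and edgeR's coefficient of variation had a median of 0.315 for members and 0.202 for all genes. The part of their low counts in this spread was not tested.

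**Figure D1:**
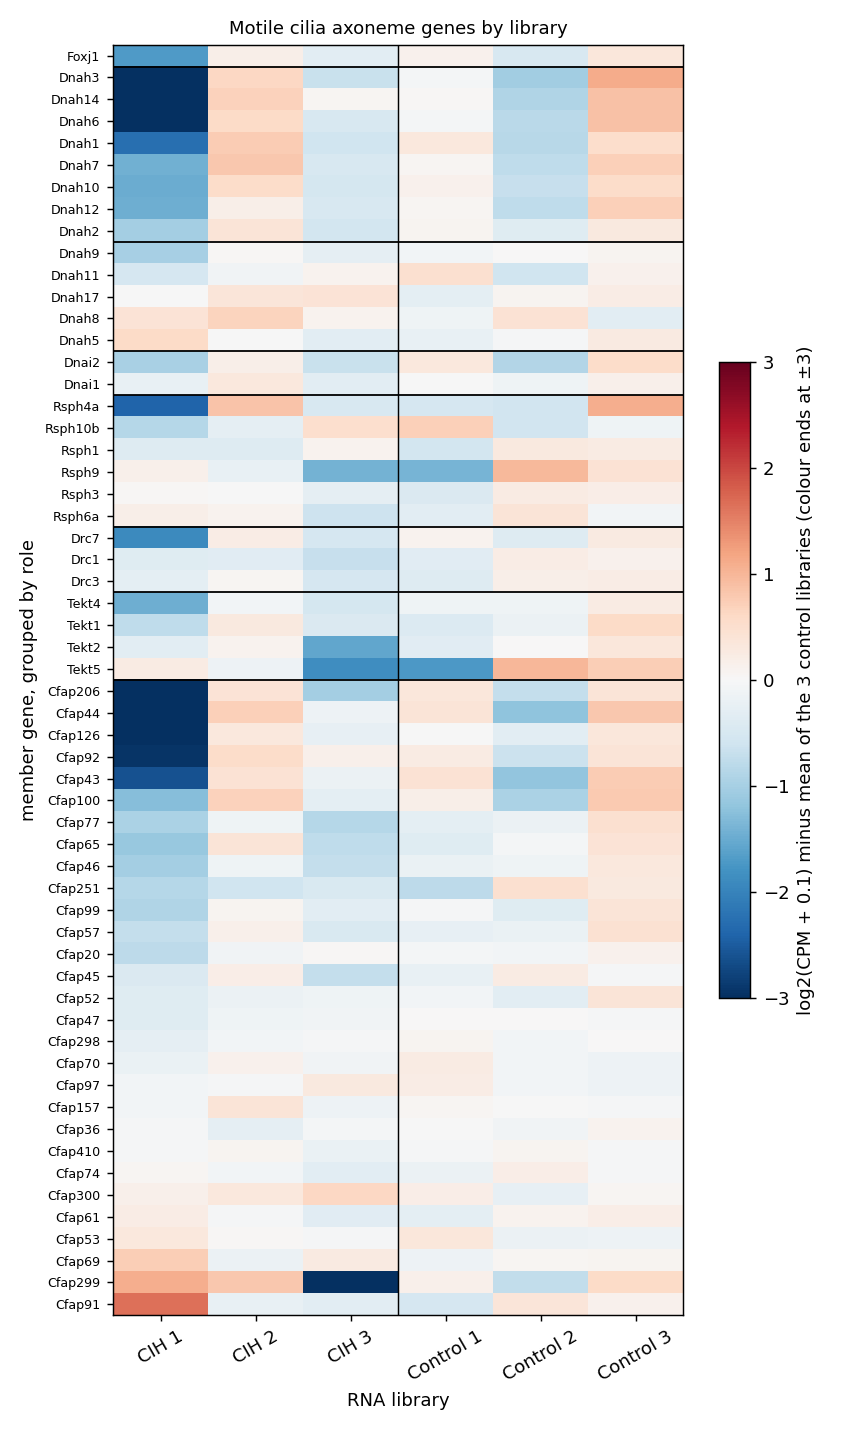
Level of each of the 58 axoneme genes (rows, grouped by role) in each of the 6 RNA libraries (columns), as log2(CPM + 0.1) minus the mean of the 3 control libraries. The CIH 1 column is darkest blue for Dnah3, Dnah14 and Dnah6 of the inner arm and for Cfap206, Cfap44, Cfap126 and Cfap92, while Cfap91, Cfap69 and Dnah5 are red in it.

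The spread had an order by library. CIH 1 was the lowest library for 33 of the 58 members, against 25.7% of all genes tested, and CIH 3 was the lowest for 14, against 13.9%. Control 3 was the highest library for 26 members, against 15.9% of all genes, and control 2 for 11, against 13.4%. A score per library, the mean over the 58 members of log2 CPM minus the gene's mean over 6 libraries, was -0.68 in CIH 1, 0.36 in CIH 2 and -0.25 in CIH 3, against 0.09 in control 1, -0.03 in control 2 and 0.50 in control 3. CIH 2 lay above 2 of the 3 control libraries, so the groups overlapped. The scores averaged -0.19 ± 0.52 in CIH and 0.19 ± 0.28 in control (SD, n = 3 each), a difference of -0.38 that was -0.13 without CIH 1, -0.22 without control 3 and -0.65 without CIH 2. In whole tissue, fewer ciliated cells and less RNA per ciliated cell cannot be told apart.

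Foxj1, the transcription factor at the head of the motile cilia programme (rat gene 116557), stood at 1.35, 5.22 and 3.69 CPM in CIH 1, CIH 2 and CIH 3, against 5.02, 3.29 and 5.89 CPM in control 1, control 2 and control 3. CIH 1 was the lowest library, at 28.4% of the control mean, and CIH 2 exceeded 2 of the 3 controls. Foxj1 averaged 3.42 ± 1.95 CPM in CIH and 4.73 ± 1.32 CPM in control (SD, n = 3 each), so that log2 CIH over control was -0.46 (SE 0.47), or -0.09 without CIH 1.

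The 8 inner arm heavy chains, motor subunits that shape the bend of the cilium, shared their lowest library. All 8 were lowest in CIH 1 and all 8 were below 0 in log2 fold change, with a median of -0.35. Without CIH 1 the median was -0.01 and 4 of the 8 were below 0. Their score was -1.90, 0.93 and -0.11 in CIH 1 to CIH 3, against 0.43, -0.42 and 1.07 in control 1 to control 3, so CIH 2 and control 3 stood highest and control 2 was second lowest.

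Dnah6 measured 0.504, 8.91 and 4.25 CPM in CIH 1 to CIH 3, against 5.76, 3.34 and 10.99 CPM in control 1 to control 3. Its log2 fold change was -0.55 (SE 0.85), or -0.03 without CIH 1, and CIH 1 stood at 7.53% of the control mean on 9 counts. Dnah12 measured 4.04, 12.8 and 8.04 CPM in the CIH libraries and 11.8, 6.63 and 18.5 CPM in the control libraries, a log2 fold change of -0.56 (SE 0.49), or -0.24 without CIH 1. For both genes CIH 2 exceeded control 1 and control 2, so the groups overlapped.

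Dnah2, which belongs to the inner arm dynein with paired heavy chains, measured 4.09, 11.05 and 5.66 CPM in CIH 1 to CIH 3, against 8.84, 6.48 and 10.3 CPM in control 1 to control 3 (log2 fold change -0.30, SE 0.38, and -0.04 without CIH 1). Here CIH 2 was the highest library of all 6. Of the remaining 5 inner arm chains, whose values were seen before they were picked for mention, Dnah1 was at 18.2% of its control mean in CIH 1, Dnah10 at 32.6% and Dnah7 at 31.9%. Dnah3 and Dnah14 had 3 counts each in CIH 1.

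The outer arm heavy chains, which supply most of the force of the beat, did not all share that lowest library. Their score was -0.12, 0.18 and -0.01 in CIH 1 to CIH 3, against -0.07, -0.03 and 0.06 in control 1 to control 3. By this score CIH 1 was lowest by a small margin. Of the 5, 1 was lowest in CIH 1, 2 were below 0 and 3 above 0 in log2 fold change, with a median of 0.12 that was -0.06 without CIH 1. Dnah9 measured 110, 226 and 183 CPM in CIH 1 to CIH 3, against 206, 222 and 230 CPM in control 1 to control 3. The controls lay close together and CIH 1 far below them, while CIH 2 lay among them. Dnah9 averaged 173 ± 58.4 CPM in CIH and 219 ± 12.6 CPM in control (SD, n = 3 each), and log2 CIH over control was -0.34 (SE 0.25), or -0.11 without CIH 1. On the authors' TPM, with all 6 libraries, limma on log2(TPM + 1) also gave -0.11, and the length implied for Dnah9 was 6239 bases in CIH 1 and 8368 to 9689 bases in the other libraries.

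Dnah5, the outer arm chain often mutated in primary ciliary dyskinesia in humans, went the other way in CIH 1. It measured 19.2, 12.7 and 10.3 CPM in CIH 1 to CIH 3, against 10.9, 12.5 and 15.4 CPM in control 1 to control 3, with CIH 1 the highest library and a log2 fold change of 0.12 (SE 0.26), or -0.18 without CIH 1. Dnah11, another outer arm chain, measured 6.84, 9.15 and 10.6 CPM in CIH and 13.7, 6.43 and 10.7 CPM in control, with the lowest and the highest library both controls. Its log2 fold change was -0.21 (SE 0.30), or -0.06 without CIH 1. Dnah8 and Dnah17, chains best known from sperm, had log2 fold changes of 0.38 (SE 0.26) and 0.26 (SE 0.26). The dynein intermediate chains, which anchor the outer arm, stood at low levels. Dnai1 measured 1.40, 2.09 and 1.31 CPM in CIH 1 to CIH 3, against 1.64, 1.497 and 1.85 CPM in control 1 to control 3 (log2 fold change -0.05, SE 0.28, and 0.03 without CIH 1), and Dnai2 stood between 0.224 and 0.834 CPM in all 6 libraries (-0.62, SE 0.59, and -0.37 without CIH 1).

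**Figure D2:**
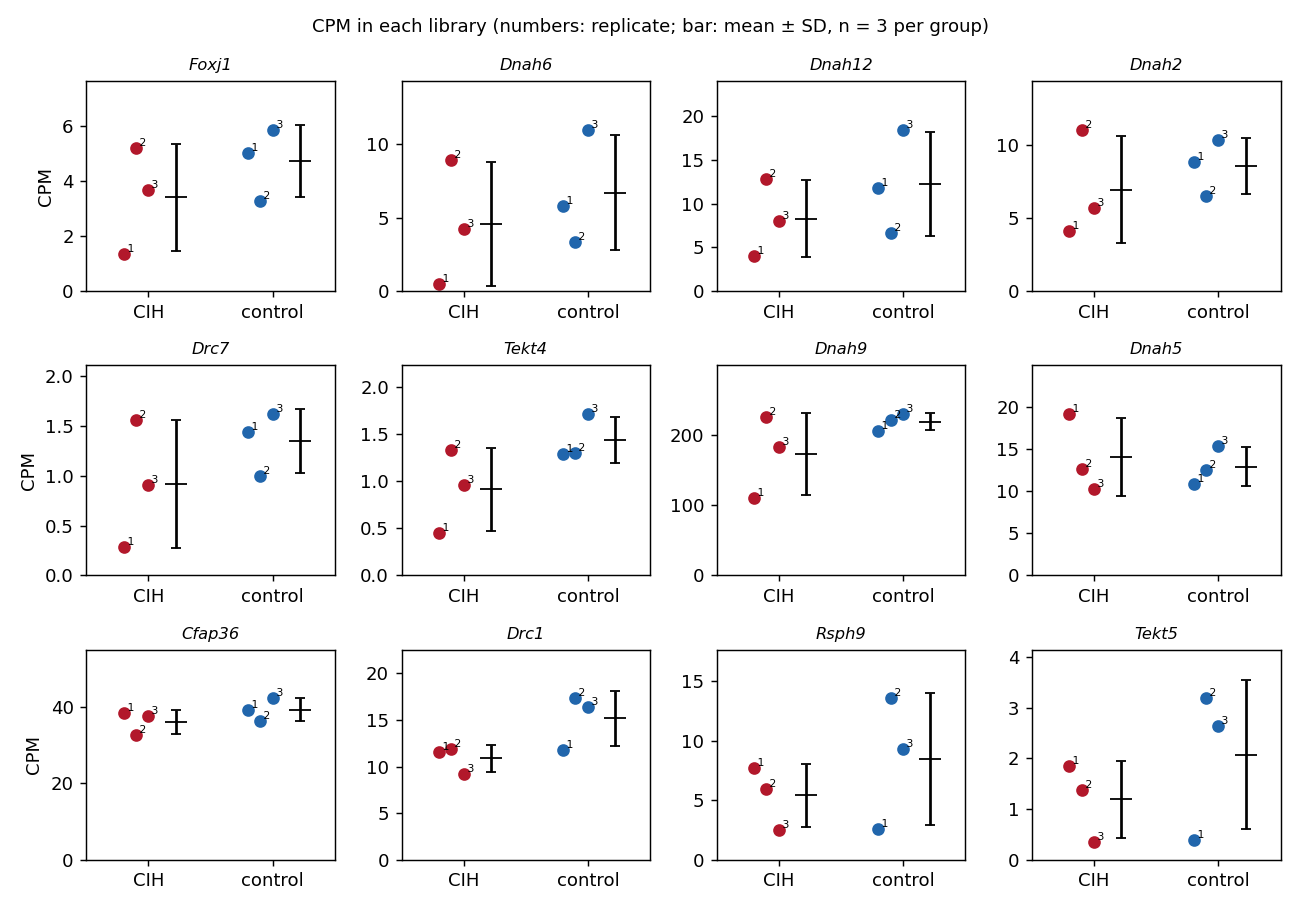
CPM of 12 axoneme genes in the 3 CIH libraries (red, left) and the 3 control libraries (blue, right), each point numbered by replicate, with bars giving mean ± SD (n = 3 each). CIH 1 is the lowest point for Foxj1, Dnah6, Dnah12, Dnah2, Drc7, Tekt4 and Dnah9 and the highest for Dnah5, while Rsph9 and Tekt5 are lowest in CIH 3 with control 1 close to it.

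The nexin-dynein regulatory complex, which links neighbouring doublets, had 3 members, all below 0 in log2 fold change with a median of -0.48 that was -0.22 without CIH 1. Drc1 measured 11.6, 11.9 and 9.20 CPM in CIH 1 to CIH 3, against 11.8, 17.4 and 16.4 CPM in control 1 to control 3. Control 1 lay within the CIH range and the other controls above it. Drc1 averaged 10.9 ± 1.46 CPM in CIH and 15.2 ± 2.98 CPM in control (SD, n = 3 each), at a log2 fold change of -0.48 (SE 0.19) and an adjusted p of 1.00 by edgeR's quasi-likelihood test with Benjamini-Hochberg adjustment. Unlike the inner arm chains, its estimate was -0.53 without CIH 1.

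Drc3 measured 7.57, 9.63 and 6.52 CPM in CIH and 7.005, 10.4 and 10.8 CPM in control, overlapping at control 1 (log2 fold change -0.25, SE 0.23). Drc7 measured 0.280, 1.56 and 0.910 CPM in CIH and 1.44, 0.998 and 1.62 CPM in control, with CIH 1 far below the rest (-0.54, SE 0.56, and -0.13 without CIH 1).

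All 6 radial spoke genes were below 0 in log2 fold change, with a median of -0.24. Without CIH 1, 4 of the 6 were below 0 and the median was -0.19. Rsph9, a protein of the spoke head, measured 7.73, 5.93 and 2.53 CPM in CIH 1 to CIH 3, against 2.58, 13.6 and 9.32 CPM in control 1 to control 3. Control 1 and CIH 3 were the low libraries here, and the log2 fold change was -0.66 (SE 0.62), or -1.01 without CIH 1. Rsph10b, the most abundant spoke gene at a mean of 52.2 TPM, measured 12.2, 18.3 and 31.5 CPM in CIH and 36.5, 14.8 and 20.1 CPM in control (-0.20, SE 0.43, and 0.06 without CIH 1). Rsph3, a protein of the spoke stalk, lay between 3.43 CPM in control 1 and 5.59 CPM in control 2 (-0.11, SE 0.24, and -0.17 without CIH 1).

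The tektins, filament proteins inside the doublets, were 4 genes, all below 0 in log2 fold change with a median of -0.58. Tekt5 measured 1.85, 1.38 and 0.354 CPM in CIH 1 to CIH 3, against 0.397, 3.19 and 2.64 CPM in control 1 to control 3, the same low libraries as for Rsph9 (-0.80, SE 0.80, and -1.26 without CIH 1). Tekt4 measured 0.448, 1.33 and 0.961 CPM in CIH and 1.29, 1.297 and 1.71 CPM in control, overlapping through CIH 2 (-0.64, SE 0.41, and -0.33 without CIH 1). Tekt1 measured 0.897, 1.99 and 1.16 CPM in CIH and 1.19, 1.40 and 2.46 CPM in control (-0.31, SE 0.42, and -0.10 without CIH 1).

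The 29 Cfap genes, a mixed class of cilia and flagella associated proteins, divided into 22 below 0 and 7 above 0 in log2 fold change, with a median of -0.22. Without CIH 1, 20 of the 29 were below 0 and the median was -0.11. Cfap47, a central pair protein, was the 1 member of the 58 whose groups did not overlap, where 2.65% of all genes tested were separated with CIH lower and 3.05% with CIH higher. It measured 2.24, 2.66 and 2.68 CPM in CIH 1 to CIH 3, against 2.93, 2.94 and 2.83 CPM in control 1 to control 3, a log2 fold change of -0.20 (SE 0.20), or -0.12 without CIH 1. The count of members with no overlap was 3 without CIH 1, 16 without CIH 2, 4 without CIH 3, 11 without control 1, 7 without control 2 and 1 without control 3, and it was 4 on the authors' TPM. Groups separate more easily with fewer libraries. The share over all genes was not computed in these settings, so these counts cannot be set against the shares from 6 libraries.

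Among the Cfap genes, Cfap251 and Cfap46 had the smallest p-values, both with an adjusted p of 1.00 by edgeR's quasi-likelihood test. Cfap251, which sits at the base of a radial spoke, measured 2.86, 3.41 and 3.79 CPM in CIH and 3.03, 7.33 and 6.49 CPM in control, with control 1 inside the CIH range (log2 fold change -0.74, SE 0.34). Cfap46, a central pair protein, measured 3.64, 6.88 and 4.501 CPM in CIH and 6.56, 6.88 and 9.32 CPM in control, with CIH 2 level with control 2 (-0.60, SE 0.28). Cfap77 measured 0.280, 0.569 and 0.303 CPM in CIH and 0.497, 0.549 and 0.927 CPM in control, overlapping through CIH 2 (-0.76, SE 0.45). Cfap300, which takes part in dynein arm assembly, leaned the other way, at 2.41, 2.70 and 3.34 CPM in CIH and 2.48, 1.80 and 2.22 CPM in control (0.38, SE 0.24).

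Several Cfap genes were close to the floor in CIH 1. Cfap206, a spoke docking protein, had 0 counts in CIH 1, which allows up to 3 counts or 0.168 CPM by counting error alone, with 0.996 CPM in CIH 2 and 0.303 CPM in CIH 3, against 0.944, 0.399 and 0.973 CPM in control 1 to control 3. Its log2 fold change was -0.79 (SE 0.93), or -0.25 without CIH 1. Cfap44 had 4 counts in CIH 1, Cfap92 had 2 and Cfap126 had 1, all picked for mention after their values were seen. Cfap44 and its partner Cfap43 tether inner arm dyneins, and Cfap43 stood at 12.2% of its control mean in CIH 1.

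The Cfap genes with the highest TPM did not share 1 pattern. Cfap36 measured 38.3, 32.5 and 37.5 CPM in CIH 1 to CIH 3, against 39.0, 36.3 and 42.3 CPM in control 1 to control 3, a narrow range with CIH 1 near the controls (-0.12, SE 0.11). Cfap20, found where the tubules of a doublet join, measured 15.2, 24.6 and 27.2 CPM in CIH and 25.3, 24.99 and 28.9 CPM in control (-0.24, SE 0.22, and -0.03 without CIH 1). CIH 1 was the highest library for Cfap299, Cfap69, Cfap61, Cfap91 and Dnah5, 5 of the 58, against 25.7% of all genes tested. Cfap91, a spoke base protein named after its values were seen, measured 10.9, 2.89 and 2.73 CPM in CIH and 2.38, 4.44 and 3.71 CPM in control, with CIH 1 far above the rest. Its log2 fold change was 0.65 (SE 0.58), and -0.32 without CIH 1.

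Cfap299 had the highest mean TPM, but its value rests on an uneven length. It measured 24.5, 20.1 and 0.152 CPM in CIH 1 to CIH 3, against 12.8, 6.88 and 17.3 CPM in control 1 to control 3, so CIH 3 was nearly empty (log2 fold change 0.27, SE 1.10, and -0.29 without CIH 1). The length implied by its counts and FPKM was 652 bases in CIH 3 and 77 to 89 bases in the other 5 libraries, and RefSeq GRCr8 places a snoRNA and pseudogenes over the gene, whose part in these counts was not tested. The summed TPM of the members was 964, 865 and 442 in CIH 1 to CIH 3 and 761, 609 and 847 in control 1 to control 3. Without Cfap299 it was 386, 437 and 441 in CIH 1 to CIH 3 and 455, 466 and 481 in control 1 to control 3, so every CIH library lay below every control library in a sum chosen after its values were seen. That sum still holds Cfap65 and Dnah6, whose lengths were also uneven. Abundant genes carry much of it, such as Rsph10b at 40.9 to 75.3 TPM and Dnah9 at 33.2 to 49.1 TPM. The 8 inner arm heavy chains together gave 2.06 to 18.7 TPM per library. The members' share of the estimated counts did not separate the groups, at 0.0464%, 0.0625% and 0.0526% in CIH 1 to CIH 3 and 0.0603%, 0.0597% and 0.0700% in control 1 to control 3.

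**Figure D3:**
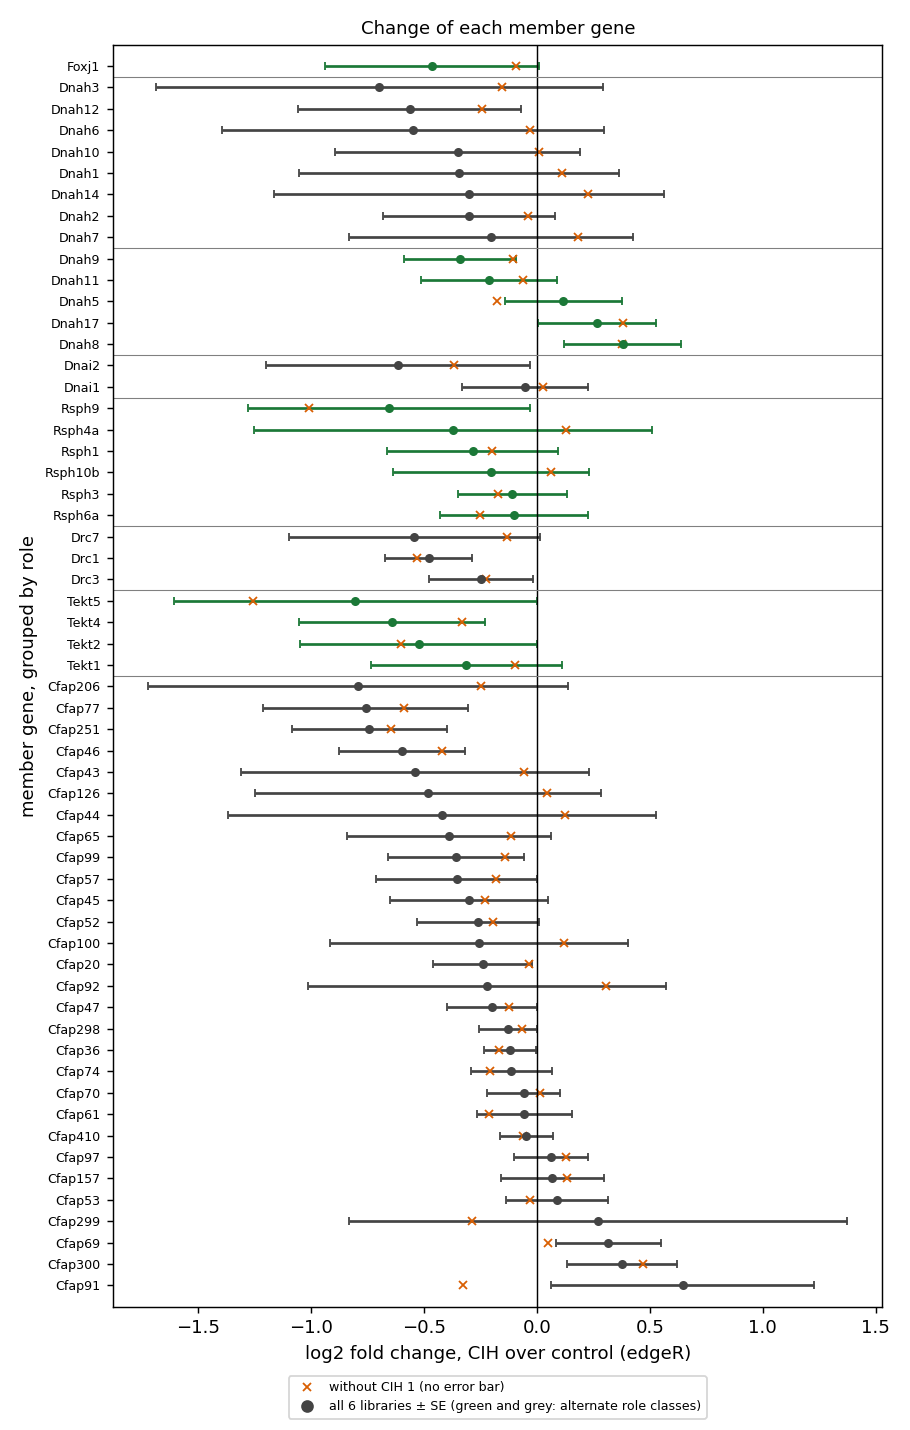
log2 fold change, CIH over control, of each of the 58 axoneme genes by edgeR with its SE (points and bars, 6 libraries), and the same without CIH 1 (crosses, no error bar). The estimates lie below 0 for 48 genes with all libraries and for 40 without CIH 1, and the crosses of the inner arm chains lie between -0.24 and 0.22.

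Genes outside the symbol rule were read from lists of cilia-related genes and cell type markers, each with its members among the 58 removed. By edgeR's quasi-likelihood test with adjustment over all genes, 0 genes of every list were called in either direction. Of 8 tested regulators of multiciliated cells, all 8 were below 0 in log2 fold change and 6 were lowest in CIH 1, with a median of -0.32 that was -0.09 without CIH 1. Below 0 without CIH 1 were 5 of the 8. Rfx3, the X-box factor with the highest TPM, measured 90.8, 142 and 187 CPM in CIH 1 to CIH 3, against 273, 145 and 194 CPM in control 1 to control 3 (-0.54, SE 0.32). Ccdc78, next by TPM, had a log2 fold change of -0.03 (SE 0.16). Rfx2, named after its values were seen, measured 6.502, 10.4 and 7.89 CPM in CIH and 9.24, 14.4 and 16.3 CPM in control (-0.69, SE 0.27). For Rfx3 and Rfx2 the groups overlapped.

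Of 39 tested further axoneme genes, 31 were below 0 with a median of -0.10, and 23 were below 0 without CIH 1. CIH 1 was the lowest library for 15 of the 39 and the highest for 9. The most abundant of the 39, Dnal1, a dynein light chain, had a log2 fold change of 0.11, and Ccdc65, also of the nexin-dynein regulatory complex, one of -0.02. Of 12 tested dynein arm assembly factors, 5 were below 0 with a median of 0.04 that was -0.01 without CIH 1. Ruvbl2 and Ruvbl1, ATPases with the highest TPM there, had log2 fold changes of -0.22 (SE 0.13) and -0.07 (SE 0.13). Of 40 genes of the primary cilium and intraflagellar transport, 25 were below 0 with a median of -0.01 that was -0.06 without CIH 1, 4 were lowest in CIH 1, and their median range over libraries was 0.35 on the log2 CPM scale. Arl3, a small GTPase, and Kifap3, a kinesin subunit, led this list by TPM with log2 fold changes of 0.00 (SE 0.12) and 0.14 (SE 0.10). The score of the primary cilium list stayed between -0.03 and 0.04 in all 6 libraries.

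Ependymal markers that the symbol rule did not take ranged in level from Cd24, at 46.0 to 66.4 TPM, to Sntn, at 0 to 0.58 TPM. Of 13 tested, 10 were below 0 in log2 fold change with a median of -0.31, which was -0.07 without CIH 1, and 8 were lowest in CIH 1. Below 0 without CIH 1 were 8 of the 13. The score of this list was -0.83, 0.30 and -0.07 in CIH 1 to CIH 3, against 0.30, -0.13 and 0.42 in control 1 to control 3, with CIH 1 lowest and control 3 highest as in the score of the axoneme genes. Of these markers, 2 (Ak7 and Dynlrb2) are also on the list of further axoneme genes. Cd24, a surface glycoprotein with the highest TPM of the list, had a log2 fold change of -0.20 (SE 0.16). Rarres2, next by TPM, measured 7.73, 9.10 and 9.15 CPM in CIH and 10.8, 5.29 and 5.89 CPM in control (0.24, SE 0.29). The other markers above 0 were S100a6 (0.59, SE 0.48), highest in CIH 1, and Odf3b (0.07, SE 0.23), whose groups did not overlap. For Odf3b the gap was narrow, from 1.345 CPM in CIH 1 to 1.344 CPM in control 3. Among all genes tested, 3.05% were separated with CIH higher and 2.65% with CIH lower. Tmem212 measured 0.112, 3.18 and 1.47 CPM in CIH and 2.09, 0.848 and 3.01 CPM in control, and Ccdc153 measured 0.841, 1.94 and 1.16 CPM in CIH and 1.79, 1.45 and 2.13 CPM in control. Tppp3, a tubulin binding protein, measured 6.11, 6.88 and 5.87 CPM in CIH and 9.99, 9.18 and 9.18 CPM in control, with no overlap (-0.59, SE 0.14, adjusted p = 1.00 by edgeR's quasi-likelihood test). Apart from Cd24 and Rarres2, these markers were named after their values were seen. Sntn, a marker of the ciliary tip, had 0 counts in 4 of the 6 libraries, and Mcidas, an early regulator of multiciliated cells, in 5.

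Markers of other parts of the tissue also moved with CIH 1. All 6 tested dentate granule cell markers were lowest in CIH 1, and Prox1, a transcription factor of those neurons, measured 28.9, 156 and 360 CPM in CIH 1 to CIH 3, against 420, 108 and 184 CPM in control 1 to control 3. Pdzd2, second by TPM in that list, had a log2 fold change of -0.37 (SE 0.29). The summed TPM of the granule cell list was 98.7, 203 and 295 in CIH and 360, 206 and 257 in control. The median log2 fold change of that list was -0.43, or -0.24 without CIH 1. Of 16 endothelial and mural cell markers, 14 were highest in CIH 1, with a summed TPM of 686, 574 and 507 in CIH and 550, 510 and 448 in control. Their median log2 fold change was 0.30, or 0.07 without CIH 1. Flt1, a receptor on endothelial cells, was at 0.33 (SE 0.11) in log2 fold change, and Rgs5, a pericyte gene, at 0.31 (SE 0.17).

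Choroid plexus epithelium, which also bears cilia and adjoins the ventricle, was followed through 15 genes, of which 9 were tested and 8 were below 0 with a median of -0.55 that was -0.39 without CIH 1. Enpp2, which has the highest TPM of the list and is also made by other brain cells, was above 0, at 47.6, 41.1 and 63.6 CPM in CIH and 66.0, 30.8 and 32.4 CPM in control (0.24, SE 0.32). Their summed TPM was 45.4, 39.5 and 117 in CIH 1 to CIH 3 and 116, 56.8 and 47.5 in control 1 to control 3, and no gene of the list was at 0 in all libraries. Ttr, the thyroxine carrier of that epithelium, measured 0.280, 1.56 and 15.9 CPM in CIH and 14.4, 6.19 and 3.38 CPM in control, so CIH 2, where the axoneme score was high, was second lowest for Ttr. The list did not share 1 pattern. Of its 9 tested genes, 4 were lowest in CIH 1, 3 were lowest in CIH 2 and 1 was highest in CIH 1. That gene, Kcnj13, named after its values were seen, measured 2.02, 0.0474 and 0.607 CPM in CIH and 1.49, 1.10 and 0.649 CPM in control. The part of any of these markers in the axoneme values was not tested.

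**Figure D4:**
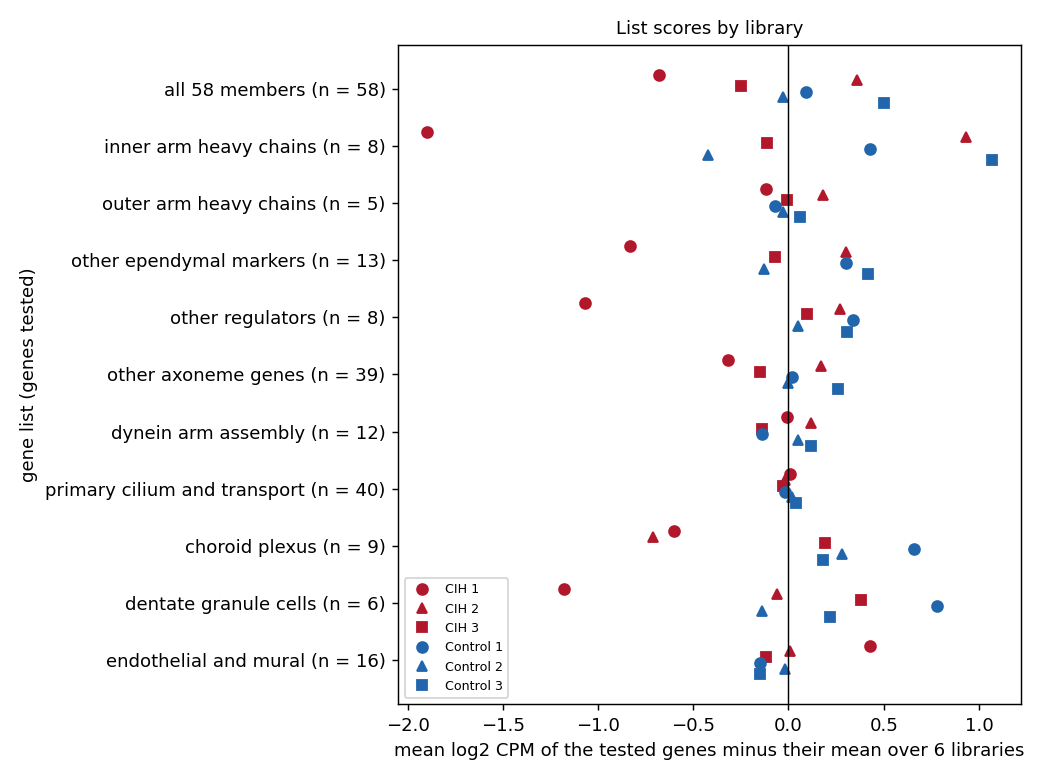
Score of each gene list in each library, the mean over its tested genes of log2 CPM minus the gene's mean over 6 libraries (CIH red, control blue, symbols by replicate). CIH 1 is the lowest library for the 58 axoneme genes, the inner arm chains, the other axoneme genes, the other ependymal markers, the regulators and the dentate granule list and the highest for the endothelial and mural list, while the primary cilium list stays within -0.03 to 0.04. CIH 1 is also lowest for the outer arm chains, by a small margin at -0.12.

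A second readout came from the small RNA libraries. The miR-34b, miR-34c and miR-449 miRNAs are known for promoting multiciliated cell differentiation, and they are shown because they share a seed, bases 2 to 8, which guides target pairing. Sequences are from RefSeq, build GRCr8, with the seed in capitals. The seed GGCAGUG occurs in 5 of 693 mature names.
miR-34b-5p: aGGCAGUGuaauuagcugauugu
miR-34c-5p: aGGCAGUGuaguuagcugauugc
miR-449a-5p: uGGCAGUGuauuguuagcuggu
miR-449c-5p: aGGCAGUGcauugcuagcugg
miR-34a-5p: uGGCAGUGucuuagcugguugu
The other arms of miR-34b and miR-34c share a different seed.
miR-34b-3p: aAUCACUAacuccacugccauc
miR-34c-3p: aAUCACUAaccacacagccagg
miR-34b-5p lies at chr8:60306657-60306679 and miR-34c-5p at chr8:60306133-60306155, close together on the minus strand. miR-449a-5p lies at chr2:46403925-46403946 and miR-34a-5p at chr5:165815971-165815992, both on the plus strand.

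No miRNA of this family passed the test. Of 12 names listed, 7 were in the small RNA table and 6 passed the count filter, and edgeR's quasi-likelihood test with Benjamini-Hochberg adjustment over 715 miRNAs called 0 of the 6. DESeq2 also called 0 of the 6, and 0.134% of all miRNAs it fitted. edgeR called 0% of all miRNAs and found 0 of the 6, and 2.38% of all, at an unadjusted p under 0.05. In simulated counts of this set, 2.04% of miRNAs changed by 2 on the log2 scale were called.

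All 5 tested names of miR-34b, miR-34c and miR-449a were lowest in CIH 1, where 22.8% of all miRNAs tested were lowest, and 3 of the 5 were under 0.5 of every other library, against 2.66% of all. The 5 names include each arm of miR-34b and of miR-34c, which lie close together, so they are not 5 separate observations. miR-449a-5p measured 47.8, 276 and 324 CPM in CIH 1 to CIH 3, against 380, 211 and 258 CPM in control 1 to control 3, with CIH 1 at 16.9% of the control mean (log2 fold change -0.39, SE 0.68, and 0.08 without CIH 1). miR-34b-5p measured 49.6, 217 and 169 CPM in CIH and 340, 166 and 191 CPM in control (-0.68, SE 0.59, and -0.28 without CIH 1). miR-34c-5p measured 163, 713 and 511 CPM in CIH and 828, 429 and 547 CPM in control (-0.38, SE 0.56, and 0.02 without CIH 1).

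In all 3, control 1 was the highest library and control 2 the lowest after CIH 1, so CIH 2 and CIH 3 lay within the control range. The opposite arms had the same low library, at 76.8, 337 and 350 CPM in CIH and 290, 150 and 385 CPM in control for miR-34b-3p (-0.11, SE 0.64) and 62.1, 200 and 189 CPM in CIH and 273, 86.0 and 209 CPM in control for miR-34c-3p (-0.33, SE 0.60). Both were above 0 without CIH 1, at 0.32 and 0.04.

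miR-34a-5p has the same seed but is expressed in many cell types, neurons included. It measured 9449, 6771 and 8885 CPM in CIH 1 to CIH 3, against 8292, 5909 and 4808 CPM in control 1 to control 3, with CIH 1 the highest library (0.40, SE 0.24). miR-449c-5p had 0 or 1 counts per library and was not tested. The labels give the RNA and small RNA libraries the same numbers but do not say that they came from the same animal.

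**Figure D5:**
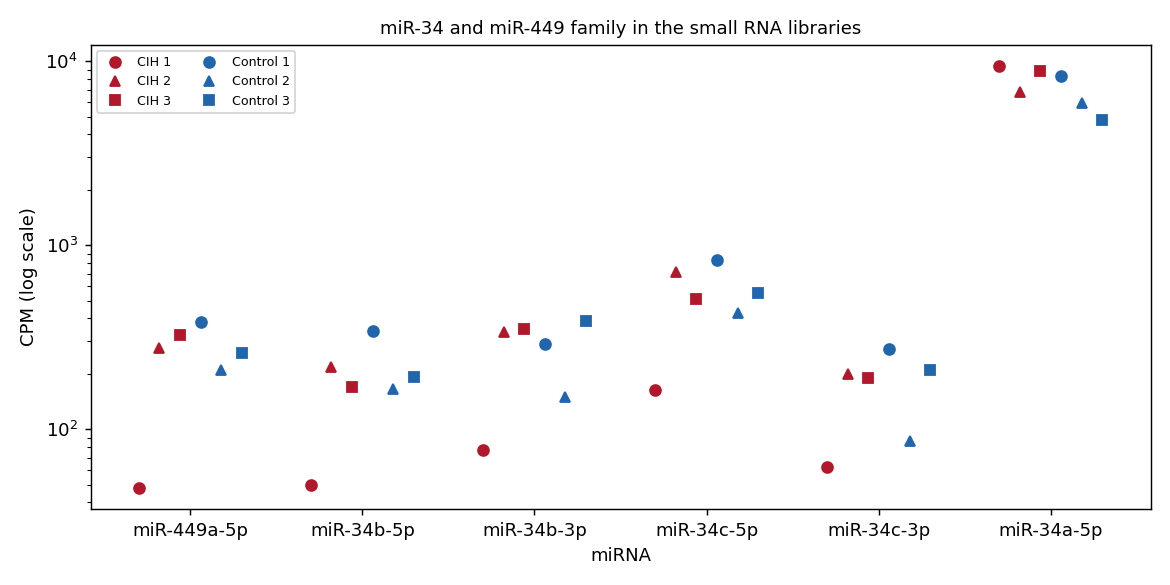
CPM on a log scale of the 6 tested miRNAs of the miR-34 and miR-449 family in the 3 CIH (red) and 3 control (blue) small RNA libraries. CIH 1 is the lowest point for the 5 names of miR-449a, miR-34b and miR-34c, at 16.9% to 32.8% of the control mean, and the highest for miR-34a-5p.

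Values by library were also set out for genes with and without an X-box match. Of the 14 with a match, 9 were lowest in CIH 1 (64.3%) and the median log2 fold change was -0.33. Of the 34 with a promoter entry and no match, 19 were lowest in CIH 1 (55.9%) and the median was -0.24. Medians without CIH 1 were not computed for these groups.

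At the threshold of 60 counts, the members just inside were Dnai2 with 60 counts, Cfap77 with 63.07 and Cfap206 with 75. Just outside lay Cfap161 with 50 counts, Rsph14 with 40.17 and Tekt3 with 35, followed by Cfap221, Cfap58 and Cfap73. Among the 58, 16 had fewer than 10 counts in at least 1 library. By position in RefSeq GRCr8, 57 of the 58 were found, 28 of them overlapped another gene and 10 a protein-coding gene, among them Drc3 with Tom1l2 and Dnah11 with Cdca7l. The sources used here do not say whether counting used strand, so the counts of these genes may hold reads of the overlapping gene.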

How the data were processed

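The labels' protocols name TRIzol extraction of total RNA from hippocampus and BGI sequencers. HISAT2 2.2.0, Bowtie2 2.2.5, RSEM 1.2.12 and build Rnor_6.0 come from the submitters' processing notes, which assign them no role. The authors deposited estimated counts, TPM and FPKM per gene, per the file headers. Estimated counts were rounded to whole numbers. The deposited TPM served to compare genes and for an alternative test, and the deposited FPKM to derive the length behind each value. The small RNA table gives whole-number counts, used as deposited. The authors' normalized small RNA score was not used.

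Samples were grouped by title. CIH was tested against control with edgeR 4.0.16 in R 4.3.3 (TMM, filterByExpr, quasi-likelihood F test, Benjamini-Hochberg over all features, threshold 0.05). Alternatives were RLE scaling, no filter, DESeq2 1.42.0, limma 3.58.1 on log2(TPM + 1) and log2(TPM + 0.1), a replicate block and leaving out each library. A prior count of 2 was used for log2 CPM in scores. No replicate pair agreed within sampling noise. Intervals and floors cover counting error only. The calling script was tested on simulated data.

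The members and lists were chosen with earlier results of these data known. Genes named were Foxj1, in each role class the 3 with the highest mean TPM, the 6 smallest p-values, members with no overlap, those next to the count threshold and the 2 highest in each other list, and others are said to be named after their values were seen or are given with a role. Promoter and miRNA sequences are from RefSeq GRCr8, whose coordinates were not set against the files' build.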

Additional observations from a re-analysis of the deposited data

How the results depend on the processing

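The count of called members (0) and of called family miRNAs (0) was the same in every alternative run, each with the tool's own adjustment. Members with no overlap numbered 1 on TMM, RLE, unfiltered and DESeq2-scaled counts, 4 on the authors' TPM, and 1 to 16 when a library was left out. Fewer libraries separate more easily, and the share over all genes was not computed for the alternatives. The median log2 fold change of the members lay between -0.41 with limma on log2(TPM + 0.1) and -0.20 with limma on log2(TPM + 1), and between -0.63 and -0.11 when a library was left out. Same-numbered libraries did not deviate together (correlations of -0.22, -0.05 and -0.18 over genes for numbers 1 to 3). With 3 libraries per group, this cannot settle whether same-numbered libraries were paired. With the replicate block the median was -0.36 and 0 members were called; the block has no bearing on whether groups overlap.

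Of 384 recomputed values for 33 named genes and miRNAs, 362 kept their direction. Cfap299, at 0.27, was -1.84 on log2(TPM + 1), -2.31 on log2(TPM + 0.1) and -0.23 with the replicate block; its implied length differs between libraries. The other values that turned came from leaving out a library, and the cause was not tested. The ranges over left-out libraries were -0.29 to 0.85 for Cfap299, -0.29 to 0.0668 for Dnai1, -1.48 to 0.008 for Dnah6, -0.18 to 0.30 for Dnah5, -0.46 to 0.0506 for Dnah11, -0.65 to 0.25 for Rsph10b, -0.30 to 0.0115 for Rsph3 and -0.70 to 0.0664 for Tekt1. They were -0.43 to 0.32 for miR-34b-3p, -0.84 to 0.0787 for miR-449a-5p, -0.72 to 0.0436 for miR-34c-3p and -0.83 to 0.0155 for miR-34c-5p.

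Of the 58 members, 16 had under 10 counts in some library, and detection by count level was not tested.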

Other observations

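Rsph9, Tekt5 and the ependymal marker Zbbx ranked the libraries in another way than Foxj1, a pattern noticed after the values were seen. Rsph9 measured 7.73, 5.93 and 2.53 CPM in CIH 1 to CIH 3 and 2.58, 13.6 and 9.32 CPM in control 1 to control 3. Zbbx measured 5.89, 5.17 and 2.43 CPM in CIH and 2.09, 7.93 and 6.30 CPM in control. Prlr, the prolactin receptor on the choroid plexus list, measured 1.74, 0.379 and 0.152 CPM in CIH and 0.298, 2.19 and 2.09 CPM in control. In all 4, counting Tekt5, control 2 was the highest library and CIH 3 or control 1 the lowest, where Foxj1 was highest in control 3 and lowest in CIH 1. Of all genes tested, 13.4% were highest in control 2.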
